A study of Arabidopsis thaliana with 6 samples.

Results

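Genes that the Arabidopsis information resource TAIR names as Toll-Interleukin-Resistance (TIR) domain proteins were followed in the ceh1 mutant of Arabidopsis thaliana and in its parent line. The members were taken by TAIR's class name, as TIR, TIR-NBS or TIR-NBS-LRR class, and by having a probe set that the array annotation pairs with a single gene. Of 13286 genes named in this way on the array, 91 were members, each with 1 probe set: 15 of the TIR class, 10 of the TIR-NBS class and 66 of the TIR-NBS-LRR class. The class names were entered by hand and not read from a table, and the class of 4 dim members counted as TIR-NBS-LRR is unsure.

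TIR-NBS-LRR proteins are intracellular immune receptors. Their leucine-rich repeats (LRR) take part in recognising pathogen effectors, their nucleotide-binding site (NBS) acts as a switch, and their TIR domain is an enzyme that cleaves NAD+. Small molecules made by TIR domains are sensed by complexes of the EDS1 family, whose members EDS1, PAD4 and SAG101 pass the signal to helper receptors of the ADR1 and NRG1 groups. Proteins of the TIR and TIR-NBS classes lack the repeats or both other parts, and several of them are known to be induced during immune responses.

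Both genotypes were whole plants of 2 weeks, grown on 0.5-strength Murashige and Skoog medium at 23 °C with 8 h of light a day. The labels describe the parent as wild type and give no other allele, marker or treatment for either genotype. As background, ceh1 is a mutant of HDS, a plastid enzyme of isoprenoid precursor synthesis, and the comparison asks how the mutant's transcriptome differs from that of its parent. RNA was taken from about 20 plants, and each genotype had 3 biological replicates with 1 Affymetrix array each.

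The trimmed mean of the deposited intensities ran from 109.9 to 175.7, a 1.60-fold range, so values were compared as log2(intensity + 2) after quantile normalization. The 25S ribosomal RNA signal was 294 to 985 in the parent and 1132 to 4598 in ceh1, with a log2 difference of 1.95 (two-sided exact permutation test over arrays, p = 0.1, which no split of 6 arrays can go below). The log2 ratio of the 3′ to the 5′ actin probe set, a measure of RNA quality, was 4.30, 4.49 and 4.32 in the parent and lower in ceh1, at 4.02, 4.11 and 4.12, with a difference of −0.29 (exact permutation test, p = 0.1). For GAPDH the difference of this ratio was 0.02 (exact permutation test, p = 0.9). Among organ markers, PYK10, a beta-glucosidase gene of roots, had log2 levels of 9.49, 9.83 and 8.62 on the parent arrays and 10.46, 10.62 and 10.50 on those of ceh1, and its difference did not pass (limma, adjusted p = 0.0733). It was the 1 of 10 root markers that was tested, since the root hair genes EXPA7 and EXPA18 were too dim and the others had no single-gene probe set. RCA, the 1 of 4 green leaf markers with such a probe set, had a log2 difference of −0.22 (limma, adjusted p = 0.435), and 0 of 4 senescence markers had one. The part of rRNA content, root share or RNA quality in the results below was not tested. In whole plants, a change in the share of a cell type and a change in RNA per cell cannot be told apart.

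Of the 91 members, 47 were bright enough to be tested, with a mean log2 level of at least 3.80 over the 6 arrays. These were 5 of 15 in the TIR class, 7 of 10 in the TIR-NBS class and 35 of 66 in the TIR-NBS-LRR class. Among them 3 rose and 1 fell in ceh1 (limma, adjusted p under 0.05), against 3.77% called over all 15922 tested probe sets, 2.62% higher and 1.15% lower. Rises were 69.5% of all calls, and 91.5% when no normalization between arrays was used. Arrays of the 2 genotypes did not overlap for 14 members, or 29.8%, against 27.5% of all tested probe sets. They were 8 above and 6 below the parent, where 12.4% and 15.1% of all tested probe sets were. An unadjusted p under 0.05 was found for 12 members, or 25.5%, against 20.9% of all tested probe sets. The median log2 difference of the tested members was −0.02, against −0.03 for all tested probe sets. Of the 47 members 30 differed by less than 0.5, against 11396 of all 15922 tested probe sets, which is a larger share. The counts describe the tested members only, since 4 of them passed the filter with a parent mean below it and 4 with a ceh1 mean below it. The number called moved with the arrays used. Without parent replicate 3, 6 TIR-domain genes passed, all of them higher, against 4.25% of all probe sets, and with any other array left out 2 passed. The background was then 1.06% and 0.955% without parent replicates 1 and 2, and 2.91%, 1.86% and 1.1% without ceh1 replicates 1, 2 and 3. With no filter on dim probe sets 2 passed against 2.3%, with the filter at the 50th percentile 0 passed against 3.38%, and with the replicate number as a block 4 passed against 7.29% (limma, adjusted p under 0.05).

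**Figure D1:**
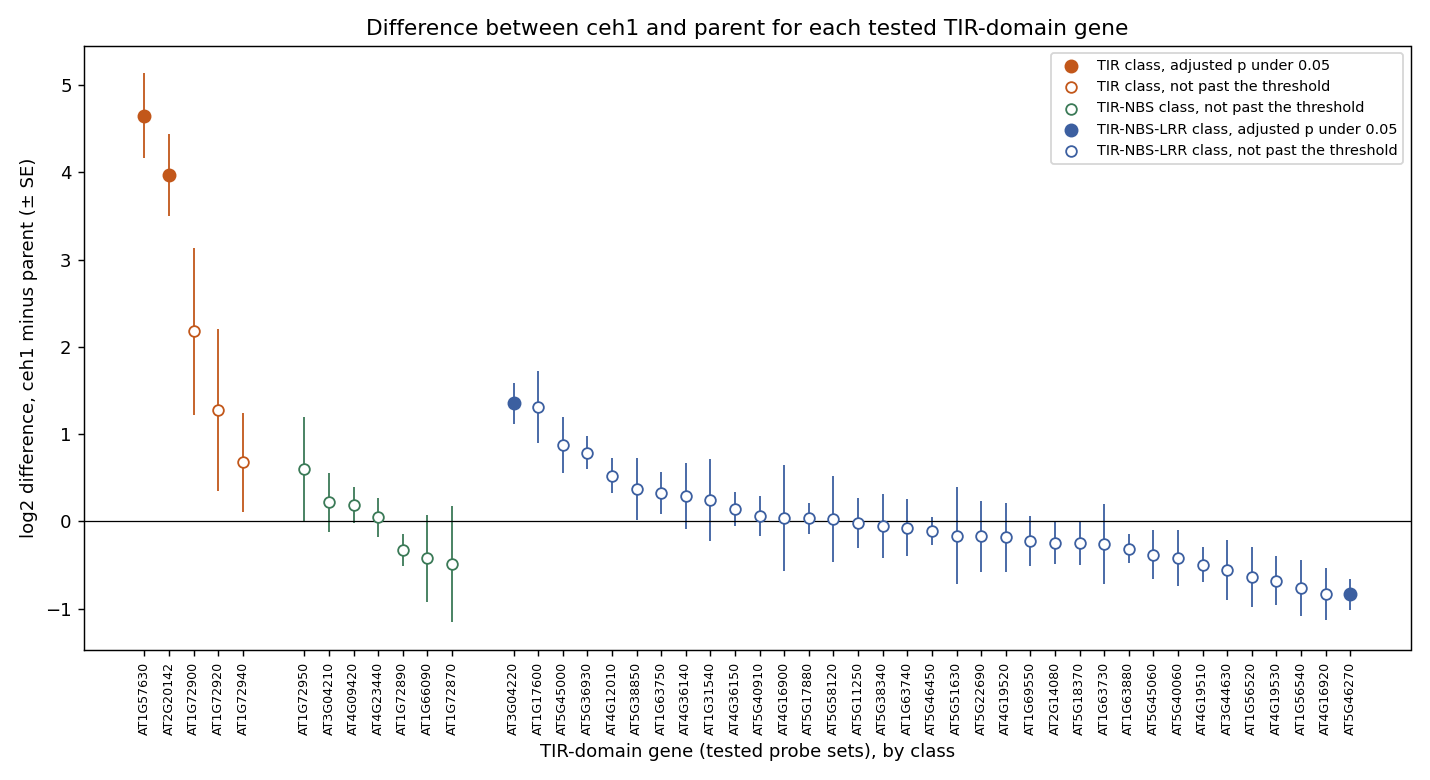
Log2 difference between ceh1 and parent (vertical axis, ceh1 minus parent, ± SE of the limma fit) for the 47 tested TIR-domain genes, grouped by TAIR class and ordered within it. Filled points have an adjusted p under 0.05: 2 genes of the TIR class and 1 of the TIR-NBS-LRR class rose, and 1 of the TIR-NBS-LRR class fell.

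Among tested members, the largest differences were in the TIR class, whose proteins carry the TIR domain without receptor parts. The 10 members of this class too dim to be tested had log2 differences from −1.23 for AT5G44910 to 0.28 for AT1G60320, so the class as a whole is not described. AT1G57630 was close to undetectable in the parent, with deposited intensities of 1.26, 9.52 and 1.46, and reached 123.9, 157.3 and 150.4 in ceh1. On the normalised log2 scale its levels were 1.74, 3.57 and 1.88 on the parent arrays and 7.13, 7.03 and 6.98 on those of ceh1. The 3 ceh1 arrays lay together, and each was over 3 log2 units above the highest parent array. The mean rose by 4.65 ± 0.48 (SE) on the log2 scale, or 25.1-fold (limma, adjusted p = 0.0040).

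AT2G20142, of the same class, had log2 levels of 2.86, 2.02 and 3.59 on the parent arrays and 6.55, 6.35 and 7.48 on those of ceh1. All ceh1 arrays were again above all parent arrays, with replicate 3 the highest in both genotypes. It rose by 3.97 ± 0.47 (SE), or 15.7-fold (limma, adjusted p = 0.0067). With any single array left out both genes still passed, with a highest adjusted p of 0.0268 for AT1G57630 and 0.0350 for AT2G20142 (limma). In both genes the parent mean, 2.40 and 2.83, lay below the brightness filter, which they passed through their ceh1 level. Both passed as well with no filter on dim probe sets (limma, adjusted p = 0.0060 and 0.0101). They also lay near the floor set by the pseudocount in the parent, so these folds understate the change and depend on it. With a pseudocount of 8 the lowest values over the alternatives were reached, 3.56 for AT1G57630 and 3.13 for AT2G20142.

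**Figure D2:**
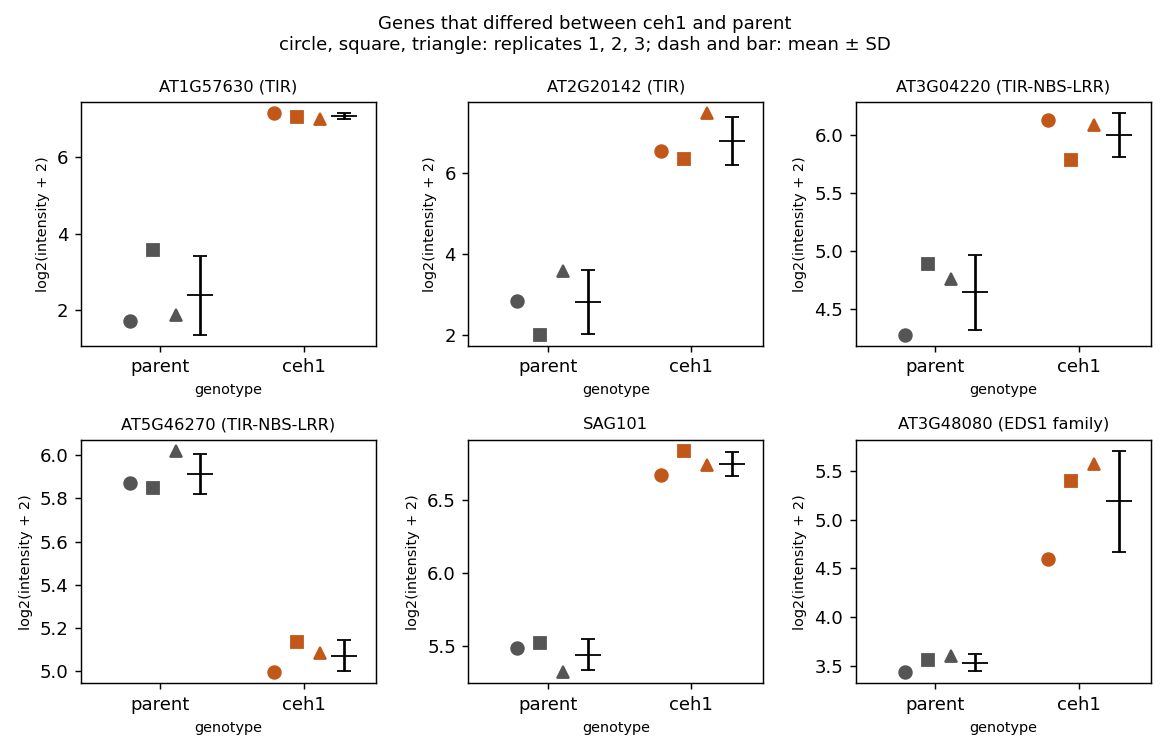
Normalised log2(intensity + 2) on each array (vertical axis, own scale per panel) for the 4 TIR-domain genes and the 2 EDS1 family genes that passed the test, by genotype. In every panel the 3 parent arrays and the 3 ceh1 arrays do not overlap.

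The other 3 tested genes of the TIR class, AT1G72900, AT1G72920 and AT1G72940, lie in 1 run of TIR-domain genes on chromosome 1 and varied strongly within the parent. AT1G72900 had log2 levels of 4.81, 5.08 and 8.59 on the parent arrays and 7.72, 8.13 and 9.15 on those of ceh1, in the order of replicates 1, 2 and 3. Parent replicate 3 was within the range of the ceh1 arrays, while the other parent arrays were far below it. Its log2 difference of 2.18 ± 0.96 (SE) did not pass (limma, adjusted p = 0.251).

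AT1G72920 followed the same order in the parent, with 4.75, 4.47 and 8.26, and had 6.84, 6.80 and 7.65 in ceh1. Here parent replicate 3 was the highest of all 6 arrays, as it was for AT1G72940, with 7.31, 6.89 and 9.22 on the parent arrays and 8.23, 8.34 and 8.88 on those of ceh1. Neither log2 difference, 1.27 for AT1G72920 and 0.67 for AT1G72940, passed the test (limma, adjusted p = 0.491 and 0.552).

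These 3 results rested on parent replicate 3. Without it the log2 differences were 3.40 ± 0.41 (SE) for AT1G72900, 2.51 ± 0.31 (SE) for AT1G72920 and 1.38 ± 0.26 (SE) for AT1G72940, and all 3 passed (limma, adjusted p = 0.0083, 0.0091 and 0.0382). AT1G72900 passed with all 6 arrays as well when no normalization was used, with array weights and with the replicate number as a block (limma, adjusted p = 0.0201, 0.0274 and 0.0427), and not in the other alternatives.

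The run on chromosome 1 holds 9 members from AT1G72840 to AT1G72950, each at most 3 genes from the next in the TAIR10.1 gene order, and 6 of them were tested. It mixes the classes, and its members did not move as 1 block. AT1G72950, of the TIR-NBS class at the end of the run, had 3.33, 3.23 and 5.27 on the parent arrays and 5.03, 3.91 and 4.67 on those of ceh1, so that parent replicate 3 was again the highest array. Its difference was 0.59 with all arrays and 1.28 without that array, and passed in neither case (limma, adjusted p = 0.634 and 0.147).

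In the tested genes on the other side of the run the pattern was absent. AT1G72890, of the TIR-NBS class and next to AT1G72900, had 7.11, 7.24 and 7.30 on the parent arrays and 6.61, 7.002 and 7.05 on those of ceh1, with all ceh1 arrays slightly below (limma, log2 difference −0.33, adjusted p = 0.362). AT1G72870 had a difference of −0.49 and overlapping arrays (limma, adjusted p = 0.732). The steep difference between parent replicates was therefore seen in AT1G72900, AT1G72920, AT1G72940 and AT1G72950. It was not seen in their tested neighbours AT1G72870 and AT1G72890. AT1G72840, AT1G72850 and AT1G72860 were too dim to be tested.

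**Figure D3:**
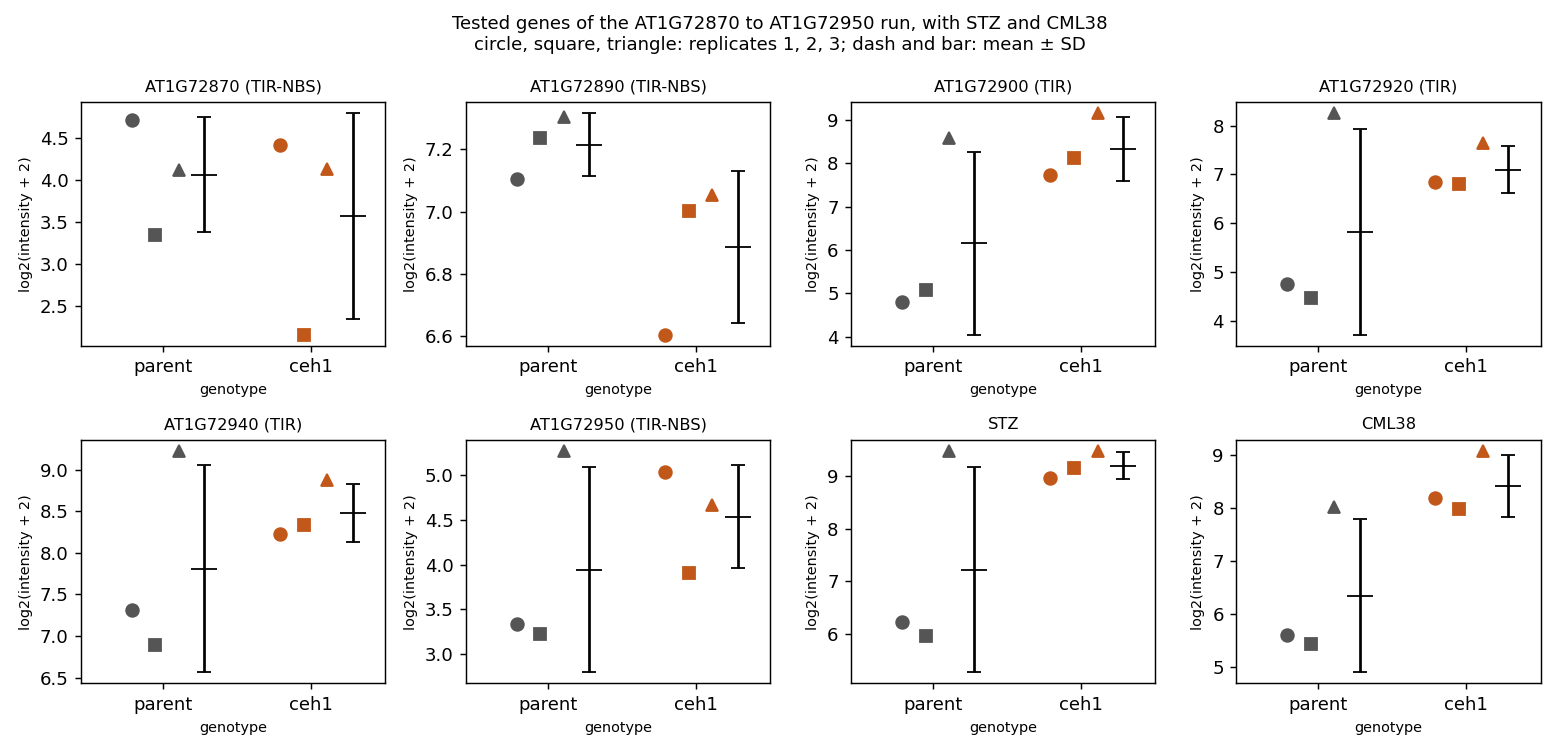
Normalised log2(intensity + 2) by array (vertical axis, own scale per panel) for the 6 tested genes of the AT1G72840 to AT1G72950 run and for the stress genes STZ and CML38, by genotype. In AT1G72900, AT1G72920, AT1G72940, AT1G72950, STZ and CML38 the triangle of parent replicate 3 lies at least 1.99 log2 units above the mean of parent replicates 1 and 2.

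Parent replicate 3 stood apart in other transcripts too. STZ, a zinc finger factor gene that responds quickly to stress, had 6.23, 5.97 and 9.47 on the parent arrays and 8.96, 9.15 and 9.47 on those of ceh1, and CML38, a calmodulin-like gene, had 5.60, 5.44 and 8.02 against 8.18, 7.98 and 9.08. Both were chosen for display after their values were seen. GI, a clock gene that peaks in the evening, had 7.52, 7.49 and 9.56 on the parent arrays and 7.66, 8.98 and 8.60 on those of ceh1. It was thus also highest in parent replicate 3. In ceh1 GI was lowest in replicate 1, as AT1G72900 was, but highest in replicate 2, while AT1G72900 was highest in replicate 3. With the level of GI as a covariate, AT1G72900 differed by 1.85 ± 0.46 (SE) and did not pass (limma, adjusted p = 0.0687). The part of rapid stress or of sampling time in the levels of AT1G72900 and its neighbours was not tested. Over the tested members, parent replicate 3 was above both other parent arrays for 27 of 47, against 38.6% of all tested probe sets. It was below both for 9, and for 11 members it lay over 1 log2 unit from the mean of the other parent arrays. For the counts of 9 and 11 the share of all tested probe sets was not computed. Within the run these were AT1G72900, AT1G72920, AT1G72940 and AT1G72950. Outside it, parent replicate 3 was higher by 1.60 in AT1G66090, 1.47 in AT5G22690, 1.15 in AT2G20142 and 1.08 in AT5G58120. It differed by −1.25 in AT4G36140, −1.11 in AT5G38850 and −1.02 in AT1G31540, and was thus lower there. AT1G66090, of the TIR-NBS class, had 6.05, 6.15 and 7.70 on the parent arrays and 6.18, 5.59 and 6.85 on those of ceh1.

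**Figure D4:**
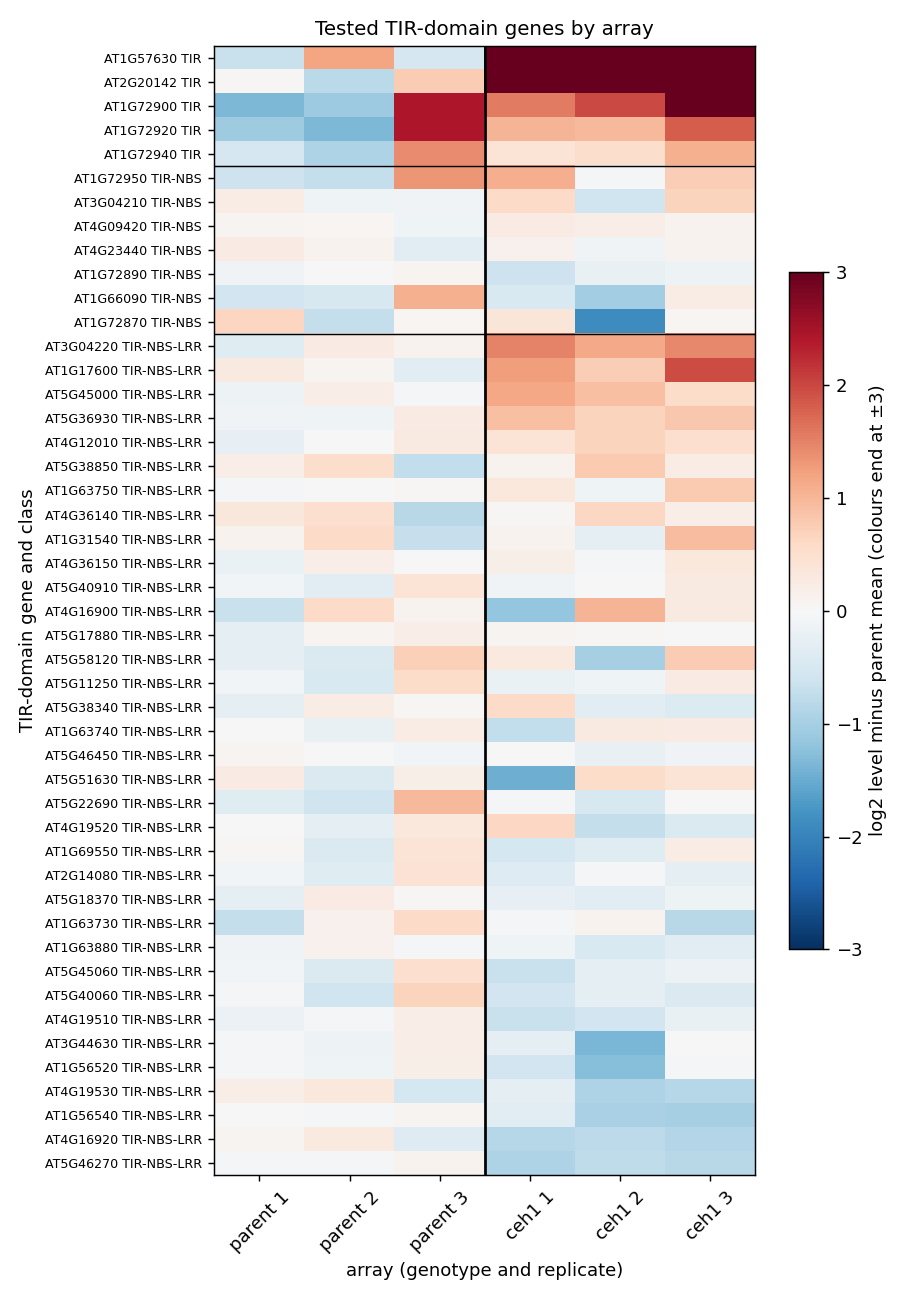
Log2 level of each of the 47 tested TIR-domain genes (rows, by class) on each array (columns), minus the mean of the gene's 3 parent arrays; colours end at 3 units either way. AT1G57630 and AT2G20142 are high on all ceh1 arrays, AT1G72900 and AT1G72920 on parent replicate 3 as well, and most TIR-NBS-LRR rows stay pale.

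In the TIR-NBS class, whose proteins carry the TIR domain and the switch without the repeats, 0 of 7 tested genes passed (limma, adjusted over all probe sets), and 0 had an unadjusted p under 0.05. Their log2 differences ran from −0.49 to 0.59 with a median of 0.04. AT4G09420 had a narrow spread, with 4.96, 4.94 and 4.75 on the parent arrays and 5.12, 5.09 and 4.996 on those of ceh1. Its ceh1 arrays were all above, by a log2 difference of 0.18 ± 0.21 (SE) (limma, adjusted p = 0.668). AT3G04210 had 8.05, 7.70 and 7.72 against 8.40, 7.24 and 8.49, so that ceh1 replicate 2 was the lowest array and the other ceh1 arrays the highest.

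Of the 35 tested genes of the TIR-NBS-LRR class, the receptors proper, 1 rose, 1 fell and 33 did not pass, with a median log2 difference of −0.11. AT3G04220, a neighbour of AT3G04210, had 4.28, 4.89 and 4.76 on the parent arrays and 6.12, 5.78 and 6.09 on those of ceh1. The groups were 0.89 log2 units apart, and the mean rose by 1.35 ± 0.24 (SE), or 2.55-fold (limma, adjusted p = 0.0286). With 1 array left out it passed without parent replicate 3 and did not pass in the other 5 cases, where the adjusted p reached 0.112 without ceh1 replicate 3 (limma). Its size changed little, from 1.16 to 1.48. Without the filter it had an adjusted p of 0.0509 (limma).

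AT5G46270 was the member that fell. It had 5.87, 5.85 and 6.02 on the parent arrays and 4.996, 5.14 and 5.09 on those of ceh1, with tight replicates and a gap of 0.71 log2 units between the groups. It fell by 0.84 ± 0.18 (SE) (limma, adjusted p = 0.0497), just inside the threshold. It did not pass with any array left out, where the log2 difference ran from −0.87 to −0.79 and the adjusted p from 0.0846 to 0.181 (limma). Without normalization between arrays, which moves the median of all probe sets from −0.03 to 0.21, its log2 difference was −0.57 (limma, adjusted p = 0.494).

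Next in order among the rises that did not pass were AT1G17600, AT5G45000 and AT5G36930. AT1G17600 had 3.51, 3.32 and 2.89 on the parent arrays and 4.49, 3.97 and 5.21 on those of ceh1, a log2 difference of 1.31 ± 0.41 (SE) (limma, adjusted p = 0.135). AT5G45000 had a difference of 0.87 (limma, adjusted p = 0.187), and in both genes the parent mean lay below the filter. AT5G36930 was brighter and tighter, with 5.42, 5.40 and 5.79 against 6.43, 6.20 and 6.33, and a difference of 0.78 ± 0.19 (SE) (limma, adjusted p = 0.0708). All 3 had ceh1 arrays above all parent arrays, as did AT4G12010, which differed by 0.52. AT5G36930 passed in 1 of the alternatives, that with array weights.

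Among falls that did not pass, AT4G16920 had 4.68, 4.91 and 4.23 on the parent arrays and 3.74, 3.83 and 3.73 on those of ceh1, a log2 difference of −0.84 ± 0.30 (SE) (limma, adjusted p = 0.175). AT1G56540 differed by −0.76 and its close neighbour AT1G56520 by −0.64 (limma, adjusted p = 0.226 and 0.348). AT4G19530 had 10.09, 10.19 and 9.35 against 9.61, 8.95 and 9.03, with parent replicate 3 inside the range of the ceh1 arrays, and differed by −0.68 (limma, adjusted p = 0.226). Its neighbours AT4G19510 and AT4G19520 differed by −0.50 and −0.18 (limma, adjusted p = 0.225 and 0.841).

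CSA1, a receptor gene first known from a shade avoidance phenotype, had 6.67, 7.04 and 7.17 on the parent arrays and 7.03, 6.995 and 6.95 on those of ceh1, a difference of 0.03 ± 0.18 (SE). AT5G46450 had 6.59, 6.52 and 6.43 against 6.51, 6.30 and 6.41, a difference of −0.11 ± 0.16 (SE). AT2G14080 and AT3G44630, bright probe sets of this class, differed by −0.25 and −0.55 (limma, adjusted p = 0.607 and 0.413), the second with 7.04 in ceh1 replicate 2 against 8.11 and 8.42 in the other ceh1 arrays.

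Of the 91 members, 52 lay in 19 groups of neighbours at most 3 genes apart, and 39 lay in none. The neighbours AT3G04210 and AT3G04220 differed by 0.22 and 1.35, and AT4G16900 and AT4G16920 by 0.04 and −0.84. AT4G36140 and AT4G36150, another pair of neighbours, differed by 0.29 and 0.14 and did not pass (limma, adjusted p = 0.722 and 0.737). The run AT1G63730, AT1G63740 and AT1G63750 had differences of −0.26, −0.07 and 0.32, and none passed (limma, adjusted p = 0.796, 0.929 and 0.505). With 1 array left out AT1G63730 ran from −0.61 to 0.03 and AT1G63740 from −0.23 to 0.26, so their direction was not settled.

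**Figure D5:**
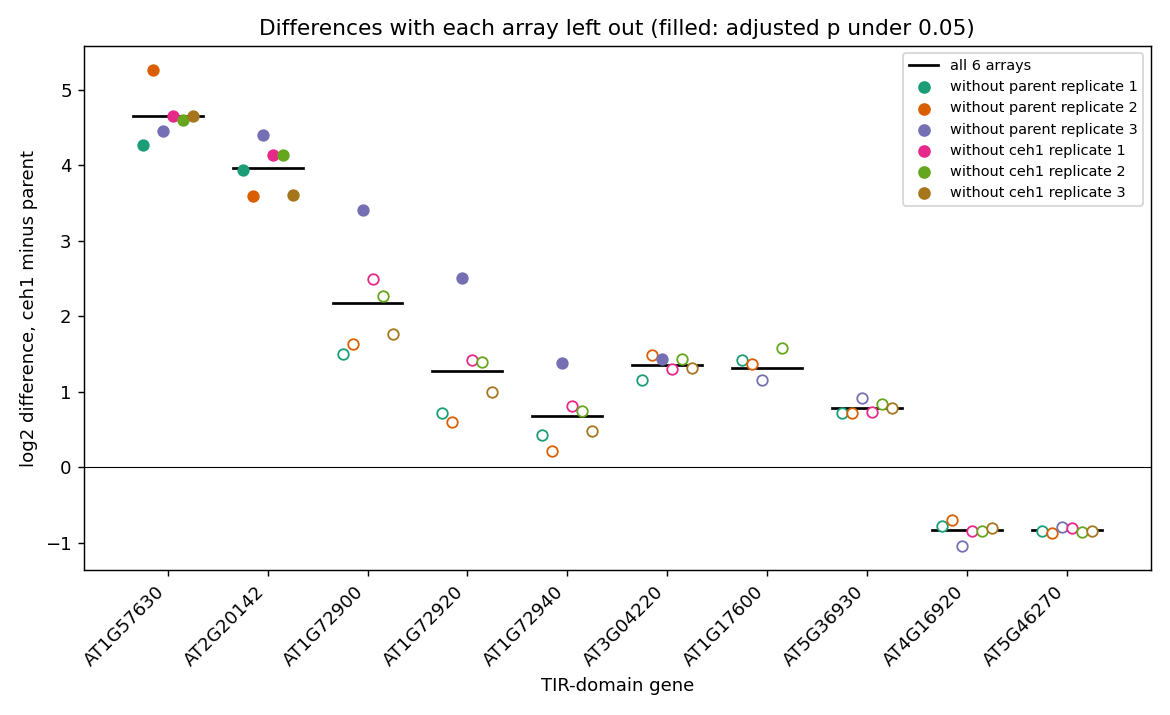
Log2 difference between ceh1 and parent (vertical axis) for 10 TIR-domain genes with all 6 arrays (black line) and with each array left out in turn (points), filled where the adjusted p is under 0.05. AT1G17600 has 4 points, since it was too dim to be tested in the other cases. AT1G57630 and AT2G20142 are filled in all 6 cases, AT1G72900, AT1G72920, AT1G72940 and AT3G04220 only without parent replicate 3, and AT5G46270 in none.

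Of the 4 genes listed for the EDS1 family, which acts downstream of TIR domains, 2 had a single-gene probe set, and both rose. SAG101 had 5.48, 5.52 and 5.32 on the parent arrays and 6.67, 6.84 and 6.75 on those of ceh1, and rose by 1.31 ± 0.16 (SE) (limma, adjusted p = 0.0084). AT3G48080, the other listed gene of this family, had 3.43, 3.55 and 3.60 on the parent arrays and 4.60, 5.40 and 5.57 on those of ceh1. All its ceh1 arrays were over 1 log2 unit above the parent arrays, and it rose by 1.66 ± 0.33 (SE) (limma, adjusted p = 0.0401). SAG101 passed whichever array was left out, with a highest adjusted p of 0.0467 (limma). AT3G48080 passed without ceh1 replicate 1 and not in the other 5 cases, where the adjusted p reached 0.160 without ceh1 replicate 3 (limma). Its parent mean lay below the brightness filter, which it passed through its ceh1 level, and with no filter it did not pass (limma, adjusted p = 0.0627).

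Of 7 helper receptor genes, 1 had a single-gene probe set, AT5G66890, and it was too dim to be tested. It had 3.66, 3.41 and 3.43 on the parent arrays and 4.27, 4.02 and 3.75 on those of ceh1. Of 11 chaperones and regulators of these receptors, 1 was tested, SGT1A, a co-chaperone gene for receptor stability. Its levels were 7.95, 7.83 and 7.46 on the parent arrays and 8.22, 8.06 and 8.12 on those of ceh1, a log2 difference of 0.39 ± 0.18 (SE) that did not pass (limma, adjusted p = 0.282).

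Genes that TAIR names as resistance proteins with a nucleotide-binding domain, with or without LRR in the name, and not as TIR, were listed for comparison. Of 48 such genes, 24 had a single-gene probe set and 11 were tested. None of the 11 passed (limma, adjusted over all probe sets), and 2 had an unadjusted p under 0.05, 1 in each direction. Their differences ran from −0.86 for AT5G35450 to 1.35 for AT1G63350 with a median of −0.06 (limma, adjusted p = 0.113 and 0.248 for these genes), and whether the receptor kinds differed from each other was not tested. The listed genes too dim to be tested had log2 differences from −1.27 for AT4G10780 to 2.09 for AT1G12290.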

How the data were processed

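Total RNA of 3 parent and 3 ceh1 samples was hybridised to 1-colour Affymetrix arrays. The deposited values are linear intensities per probe set, made by the authors with MAS5 per the submitters' processing notes. For its version, settings and scaling, the sources used here give nothing, and no detection calls were used. Of 22746 probe sets other than the 64 controls, the annotation used gives 1 gene for 13513, several for 503 and none for 8730, and 13436 of the first kind matched the TAIR10.1 gene table. That table gave names and gene order. Class names are TAIR's, entered by hand for 124 genes without a table to check them against, and 91 of these had a single-gene probe set. The class of AT4G04110, AT4G11340, AT5G45220 and AT4G23510, all too dim to be tested, is unsure.

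Intensities were taken as log2(intensity + 2) and quantile normalised. Those whose mean did not reach the 30th percentile (log2 3.80) were not tested. The test of ceh1 against parent was that of limma 3.58.1 in R 4.3.3 (eBayes with a variance trend, two-sided, Benjamini-Hochberg over 15922 probe sets, threshold 0.05). Fold changes are on that scale and understate those of dim probe sets. Precision is limited by the number of arrays. The code was tested on simulated data. The members, lists and tests were chosen with earlier results of these data known. The rule for named genes took 4 listed members, all members past the threshold, the 3 largest rises, 3 largest falls and 3 brightest of each class, and the tested genes of the signalling lists; other members, STZ and CML38 were named after their values were seen. As alternatives, the pseudocount was set to 1 or 8, the filter was dropped or raised to the 50th percentile, and normalization was dropped or replaced by median scaling; others were array weights, no variance trend, robust eBayes, the level of GI as a covariate, a replicate block and each array left out in turn.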

Additional observations from a re-analysis of the deposited data

How the results depend on the processing

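Of 4 TIR-domain genes past the threshold, 2 remained without the filter, AT1G57630 and AT2G20142, and 0 with the filter at the 50th percentile, for which all 4 were too dim. Leaving out 1 array gave 2 to 6, with AT1G57630 and AT2G20142 among them each time and 2 in every case but that without parent replicate 3, which gave 6. For the EDS1, helper, chaperone and other receptor genes, 2 passed, against 1 without the filter, 1 with the filter at the 50th percentile and 1 to 2 with an array left out. Over all probe sets 600 passed, against 384 with the stricter filter, 1815 with array weights, 933 with the GI covariate and 152 to 676 with an array left out. The share of rises among calls was 69.5%, and 91.5% without normalization, 58.4% with the replicate block, 61.4% with the GI covariate and 51.5% with array weights. The median difference of the tested members was 0.25 without normalization, where that of all probe sets was 0.21, against the reported −0.02, and ran from −0.12 to 0.05 with an array left out. The difference changed sign in at least 1 alternative for 22 of the 47 tested members, 0 of which passed in any (limma, adjusted p under 0.05). They included AT1G63730, AT1G63740, AT4G16900, AT4G19520, AT4G36140, CSA1 and AT5G46450, and among genes named by rule AT1G66090 had 0.16 with array weights and ran from −0.75 to 0.11 with an array left out, AT1G72870 ran from −0.85 to 0.21, AT3G04210 ran from −0.0030 to 0.62, and AT2G14080 had 0.012 without normalization. The causes were not tested. The replicate numbers were not taken to pair the arrays, since nothing in the labels says that they do. Same-numbered arrays had correlations of 0.27, 0.06 and 0.47 in their deviations from the genotype means. Between parent and ceh1 arrays of unlike number the correlations ran from −0.40 to 0.34, so pairing was not settled by these values. With the replicate block 1160 probe sets passed, among them 4 TIR-domain genes, which were AT1G57630, AT2G20142, AT3G04220 and AT1G72900, while AT5G46270 did not pass (limma, adjusted p = 0.0607). Among the ceh1 arrays, parent replicates 1 and 3 correlated best with their own number, and parent replicate 2 with ceh1 replicate 1. Arrays give no depth in reads, and 44 members were too dim to be tested.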

Other observations

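AT2G32140, a gene that encodes a TIR domain but carries another name in TAIR and so was no member, had log2 levels of 3.38, 1.52 and 3.93 on the parent arrays and 5.51, 5.74 and 7.19 on those of ceh1. All ceh1 arrays were above all parent arrays, and the log2 difference was 3.20 ± 0.70 (SE), just outside the threshold (limma, adjusted p = 0.0528). Its parent mean of 2.94 lay below the brightness filter, which it passed through its ceh1 level. The gene passed in 7 of 16 alternatives, with adjusted p values from 0.00028 to 0.161 over all of them (limma). AT4G19500, likewise named otherwise, differed by −0.32 (limma, adjusted p = 0.360). The 2 probe sets of AT1G51270, also named otherwise, differed by 0.32 and 0.95 (limma, adjusted p = 0.544 and 0.140), and they thus disagreed in size but not in direction.

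Probe sets shared by several TIR-domain genes were outside the rule, and 5 were on the array. The probe set of AT5G41750 and AT5G41740 had 4.93, 4.71 and 6.63 on the parent arrays and 6.92, 6.15 and 7.90 on those of ceh1, with parent replicate 3 inside the range of the ceh1 arrays as for AT1G72900. Its log2 difference was 1.57, and 2.19 without parent replicate 3 (limma, adjusted p = 0.197 and 0.0559). The probe set of AT4G16960 and AT4G16940 differed by 0.79 (limma, adjusted p = 0.305).

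Of the 44 members too dim to be tested, 17 had a log2 difference above 0 and 27 below. With no filter on dim probe sets 0 of them passed (limma, lowest adjusted p = 0.261), and 1 had an unadjusted p under 0.05. It was AT3G44400 of the TIR-NBS-LRR class, with log2 levels of 2.97, 4.27 and 1.20 on the parent arrays and 4.48, 4.37 and 5.18 on those of ceh1, and deposited intensities no higher than 42.3.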
